A study of Mus musculus with 12 samples.

Results

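The RNA of 43 genes of DNA replication was followed in the left atrium (LA) of 6 iNICD mice and 6 Control mice. The genes were taken by name from the table of read counts, which holds 54658 gene names, and all 43 were found. They fall into 8 roles: origin recognition and licensing (9 genes), the MCM helicase with Cdc45 and GINS (12), polymerases and primase (5), the sliding clamp and its loader (6), Okazaki fragment joining (2), nucleotide supply (3), chromatin assembly and maintenance (3) and regulators of S phase entry (3). iNICD mice carried αMHC-rtTA, in which a cardiomyocyte promoter drives the reverse tetracycline transactivator, together with TetO-NICD, which makes the intracellular domain of Notch1 when transactivator and doxycycline meet. Control mice carried αMHC-rtTA alone. Both groups ate doxycycline chow for 3 weeks, beginning at 2 to 3 months of age, and were sampled with no washout; there were 4 female and 2 male Control mice and 3 female and 3 male iNICD mice, each LA being its own library. The transgene is driven in cardiomyocytes, but the RNA came from the whole LA, so that in these bulk samples fewer cells of a type and less RNA per cell cannot be told apart.

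Before a cell copies its DNA, the origin recognition complex (Orc1 to Orc6) with Cdc6 and Cdt1 loads the ring of Mcm2 to Mcm7 onto chromatin. Cdc45 and GINS turn that ring into the active helicase in S phase, and polymerases, the Pcna clamp and the Rfc loader follow it. Many of these genes are transcribed in late G1 and S phase under E2F factors, whereas others are made at a steady level in resting cells. Adult cardiomyocytes rarely divide, although they can copy their DNA without dividing. The study also measured the DNA content of cardiomyocyte nuclei in this mouse model, and the comparison asks whether RNA of the genes that copy DNA differed between iNICD and Control LA.

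Each library held between 21432632 and 27182038 reads counted on genes. *Notch1* stood between 108 and 131 normalized CPM (counts scaled to a common library total, with TMM factors) in the 6 Control libraries and between 2975 and 4077 in the 6 iNICD libraries, with no overlap (log2 fold change 4.85 ± 0.11 SE, adjusted p = 3.03e-11, edgeR). Cardiomyocyte markers were high in all libraries, with a summed level of 76012 to 94264 normalized CPM over 11 markers in Control and 63005 to 76039 in iNICD. Of those 11, 4 were called lower in iNICD (*Tnnt2*, *Myl7*, *Myl4* and *Sln*), where 1.34% of all tested genes were called lower. The library Control replicate 5 stood apart from the others over all genes, with a normalization factor of 0.863 against 0.973 to 1.06 in the rest.

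The starts of the replication genes show which of them carry the letters that E2F factors recognise. RefSeq gives windows of 300 bases around annotated starts (GRCm38.p6), and 34 of the 43 genes had at least 1 such window, 42 in all. The 8-letter forms TTTCCCGC, TTTGGCGC, TTTCGCGC and TTTGCCGC were searched on both strands; neighbouring matches can overlap. At least 1 of them stood in 14 of the 42 windows (33.3%), and in 2.26% of all 32851 windows. The 14 genes were *Cdc6*, *Cdt1*, *Gins3*, *Lig1*, *Mcm3*, *Mcm5*, *Mcm6*, *Mcm7*, *Orc1*, *Orc3*, *Pola1*, *Pold1*, *Rfc3* and *Uhrf1*. CCAAT stood in 24 of the 42 windows (57.1%) and in 37.4% of all windows. The RBPJ letters CGTGGGAA or TGTGGGAA, which the partner of the Notch1 intracellular domain recognises, stood in 1 window, that of *Fen1* (2.38%, against 2.57% of all windows). A match is a description of letters and not of binding.

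The bases just before the start are shown for 4 genes with E2F letters and for *Mcm2* and *Rrm2*, 2 genes without them that had large differences between libraries. Capitals mark the E2F letters, on either strand, and each run is written 5′ to 3′ on the gene's own strand. The run of *Mcm5* is chr8:75109309-75109508 (plus strand), that of *Mcm6* chr1:128359706-128359905 (minus strand), that of *Orc3* chr4:34614945-34615142 (minus strand), that of *Pola1* chrX:93632156-93632355 (minus strand), that of *Mcm2* chr6:88898781-88898980 (minus strand) and that of *Rrm2* chr12:24708054-24708240 (plus strand).
Mcm5: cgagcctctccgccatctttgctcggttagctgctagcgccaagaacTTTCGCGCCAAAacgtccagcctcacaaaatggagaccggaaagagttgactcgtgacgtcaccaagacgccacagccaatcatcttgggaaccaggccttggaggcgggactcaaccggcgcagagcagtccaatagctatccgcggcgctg
Mcm6: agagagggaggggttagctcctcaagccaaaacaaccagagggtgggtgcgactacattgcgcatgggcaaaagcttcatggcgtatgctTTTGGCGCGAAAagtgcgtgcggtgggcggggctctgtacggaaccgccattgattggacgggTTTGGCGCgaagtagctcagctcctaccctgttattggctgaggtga
Orc3: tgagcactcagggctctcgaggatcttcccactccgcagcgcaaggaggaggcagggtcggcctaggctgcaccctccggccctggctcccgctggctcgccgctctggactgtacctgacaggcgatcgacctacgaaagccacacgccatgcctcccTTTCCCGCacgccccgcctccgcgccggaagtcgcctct
Pola1: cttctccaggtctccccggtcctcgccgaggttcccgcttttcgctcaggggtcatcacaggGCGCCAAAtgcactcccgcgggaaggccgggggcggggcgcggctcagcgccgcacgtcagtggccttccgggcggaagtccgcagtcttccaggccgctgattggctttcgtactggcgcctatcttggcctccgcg
Mcm2: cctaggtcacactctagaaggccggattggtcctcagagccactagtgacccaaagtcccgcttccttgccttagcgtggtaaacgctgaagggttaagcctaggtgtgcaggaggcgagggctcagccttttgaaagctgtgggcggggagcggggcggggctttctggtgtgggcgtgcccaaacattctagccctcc
Rrm2: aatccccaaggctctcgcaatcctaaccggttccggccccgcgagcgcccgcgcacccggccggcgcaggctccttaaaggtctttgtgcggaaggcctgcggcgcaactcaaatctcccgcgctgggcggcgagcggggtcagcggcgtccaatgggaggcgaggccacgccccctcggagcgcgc
*Mcm6* holds 3 matches in this run, beginning 110, 106 and 47 bases before the start, and *Mcm5* holds 2 overlapping matches at 153 and 149 bases before it. *Orc3*, a gene of steady level here, has a match 41 bases before its start, and *Pola1* has one at 138 bases. *Mcm2* and *Rrm2* have none in this window, which says nothing of the rest of the locus.

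None of the replication genes was called between iNICD and Control. A gene was tested where more than 1 CPM was reached in at least 6 libraries, which 39 of the 43 genes met, and it was called at an adjusted p under 0.05 (quasi-likelihood test of edgeR, p-values adjusted by Benjamini-Hochberg across the 13541 genes tested). Of those 39, 0 were called higher and 0 lower, where 2.78% of all tested genes were called higher and 1.34% lower. The lowest adjusted p was 0.191, for *Mcm7*. DESeq2 also called 0 of the 39, against 7.84% of all genes it gave an adjusted p. Without adjustment, 4 genes were under 0.05 and higher in iNICD (*Mcm2*, *Mcm7*, *Rfc3* and *Rrm2*), where 9.32% of all tested genes were, and 0 were lower, where 8.09% of all were. That count of 4 was 0 without iNICD replicate 1, 1 without Control replicate 5 and 2 without Control replicate 6. In none of the 39 were the groups free of overlap, against 3.83% of all tested genes.

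The log2 fold change (iNICD minus Control) was above 0 in 29 of the 39 tested replication genes, with a median of 0.15 and a range of -0.27 to 1.12. Over all tested genes it was above 0 in 48.7%, with a median of -0.01. The 95% interval lay wholly within a 1.5-fold change either way in 22 of the 39 genes, so for these a larger change of the group mean was outside the interval. For the other 17, among them *Mcm2*, *Mcm5*, *Mcm6*, *Rrm2*, *Uhrf1* and *E2f1*, the interval reached past 1.5-fold.

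**Figure D1:**
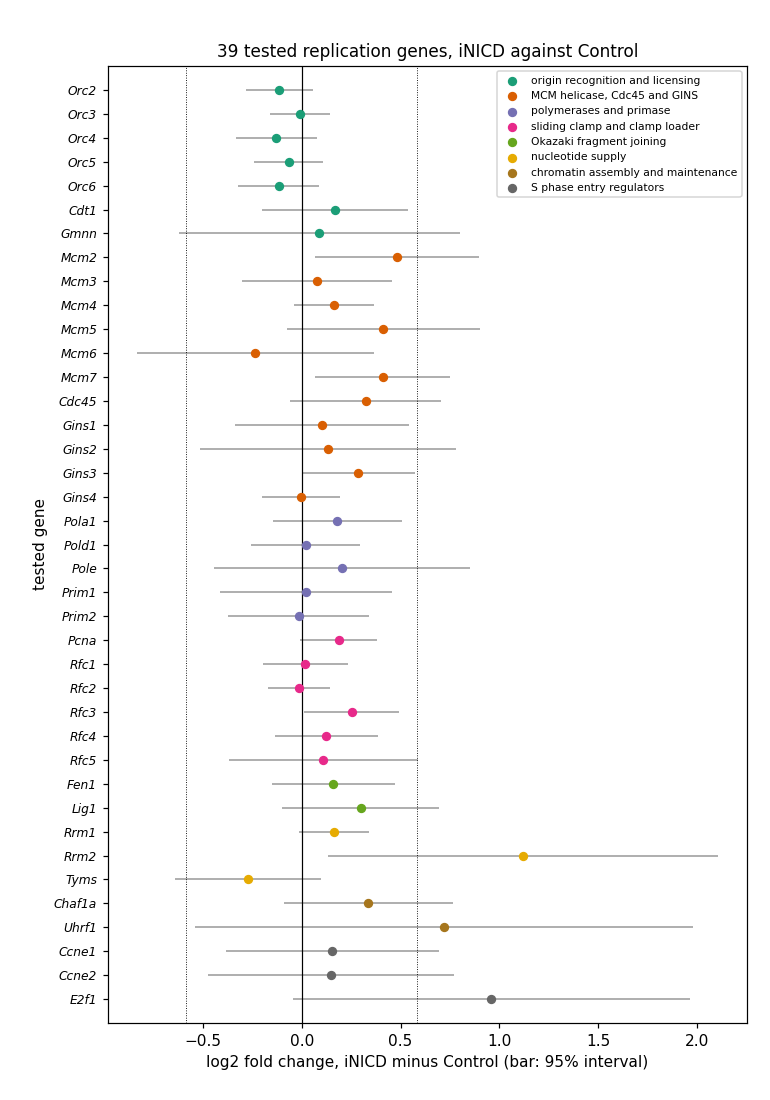
Log2 fold change (iNICD minus Control) of each of the 39 tested replication genes, with its 95% interval from the edgeR fit, coloured by role; dotted lines mark 1.5-fold either way. The genes of origin recognition sit close to 0 with short bars, whereas *Rrm2* (1.12), *E2f1* (0.96) and *Uhrf1* (0.72) lie farthest right with long bars.

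Levels per length show what the LA holds of this machinery. Normalized CPM per kilobase, using the gene lengths of the table, averaged 10.3 ± 1.23 (SD, n = 6) for *Gins4* in Control LA, the highest of the 43 genes, followed by *Rfc1* at 9.16 ± 1.42. These 2 means differed by less than the spread. *Orc3* (7.02 ± 0.711), *Pcna* (6.51 ± 0.760), *Orc2* (6.20 ± 0.589) and *Orc4* (5.78 ± 0.847) came next. *Orc3* was below *Rfc1* by more than the spread of either, while *Orc3* to *Orc4* were each within the spread of the next in this order. The 6 subunits of the Mcm ring, which act in equal numbers, did not share a level by this measure: *Mcm4* stood at 4.99 ± 0.449, *Mcm6* at 3.37 ± 1.11, *Mcm3* at 2.44 ± 0.536, *Mcm7* at 1.92 ± 0.373, *Mcm5* at 1.56 ± 0.401 and *Mcm2* at 1.42 ± 0.254. Their order depends on the lengths, which were taken as given (6956 bases for *Mcm2*, 3589 for *Mcm4*). In normalized CPM the Control means were 17.9 (*Mcm4*), 15.7 (*Mcm6*), 9.85 (*Mcm2*), 9.17 (*Mcm3*), 8.52 (*Mcm7*) and 6.23 (*Mcm5*). At the other end stood *Orc1*, the largest subunit of its complex, at 0.0495 ± 0.0509, *Mcm10* at 0.0829 ± 0.0334, *Chaf1b* at 0.123 ± 0.0796 and *Cdc6* at 0.162 ± 0.0725. These 4 were the genes below the filter.

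**Figure D2:**
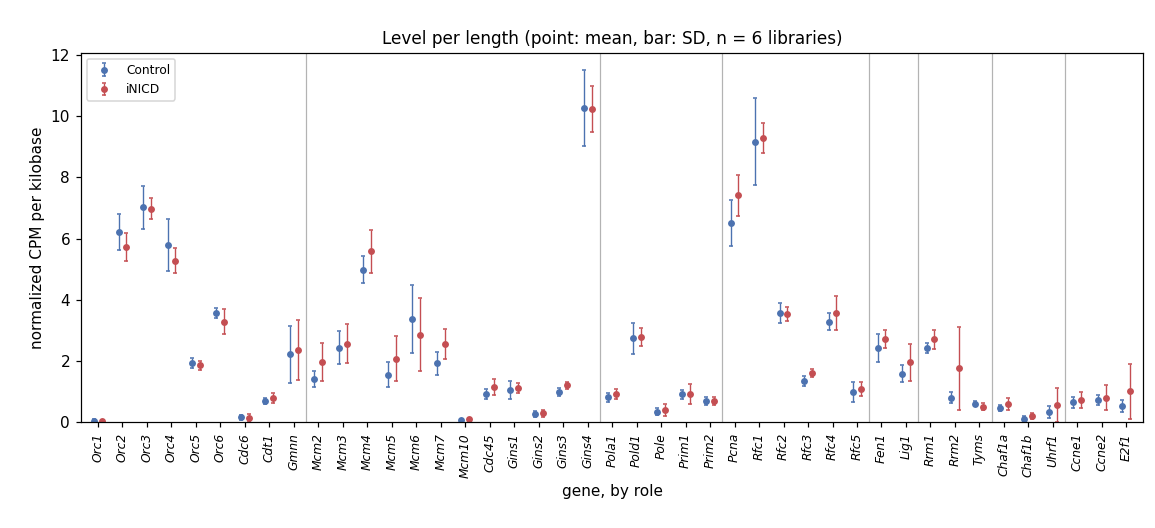
Level per length (normalized CPM per kilobase) of the 43 replication genes by role, as mean and SD over 6 Control and 6 iNICD libraries. *Gins4* and *Rfc1* are highest, near 10, while *Orc1*, *Cdc6*, *Mcm10* and *Chaf1b* lie near 0 in both groups.

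The 4 genes below the filter had few reads. *Orc1* had 1 to 14 counts per library and 54 over all 12. *Cdc6*, which loads the helicase together with Orc, had 8 to 48 counts, and its highest library was iNICD replicate 1, at 1.95 normalized CPM. *Mcm10*, which helps to start the helicase, had 7 to 29 counts, and *Chaf1b*, a subunit of the histone chaperone CAF-1, had 8 to 46. For both of these iNICD replicate 1 was the highest of the 12 libraries as well. With no filter on low counts beyond 1 count in any library, edgeR gave log2 fold changes of 0.07 for *Orc1*, -0.14 for *Cdc6*, 0.31 for *Mcm10* and 0.72 for *Chaf1b*, and called none of them (lowest adjusted p = 0.514, for *Chaf1b*, unadjusted p = 0.0893).

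The origin recognition and licensing genes had small differences: of the 7 tested, 2 had a log2 fold change above 0, the median was -0.07 and 6 intervals lay within 1.5-fold. *Orc3* stood at 39.9, 43.8, 40.7, 39.7, 51.1 and 41.4 normalized CPM in Control replicates 1 to 6 and at 44.0, 41.3, 40.7, 46.0, 42.0 and 40.9 in iNICD replicates 1 to 6. The groups overlapped, and the highest value belonged to Control replicate 5. Its log2 fold change was -0.01 ± 0.07 (SE), with a 95% interval of -0.16 to 0.14 (adjusted p = 0.966, edgeR). *Orc2*, *Orc4*, *Orc5* and *Orc6* had log2 fold changes of -0.11, -0.13, -0.07 and -0.12, and the intervals of all 5 tested Orc genes lay within 1.5-fold. *Orc6*, the smallest subunit, was below every Control library in 4 of the 6 iNICD libraries and above every one in 1.

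The licensing partners had wider intervals. *Cdt1*, which brings the Mcm ring to the origin, stood at 2.07, 2.66, 2.28, 2.53, 1.97 and 1.90 normalized CPM in Control and at 3.17, 2.73, 2.88, 1.74, 2.01 and 2.54 in iNICD, replicates 1 to 6. iNICD replicates 1, 2 and 3 were above every Control library and iNICD replicate 4 was below every one. Its log2 fold change was 0.17 ± 0.17 (adjusted p = 0.649, edgeR), or 0.092 without iNICD replicate 1. A predicted gene on the same strand, Gm20388, spans *Cdt1* in the annotation. Where only unambiguous reads are counted, as in a route of the study's methods, reads that fall on both genes could be lost to *Cdt1*. *Gmnn*, which holds Cdt1 in check, varied between 1.78 and 5.55 normalized CPM in iNICD and between 1.84 and 4.74 in Control.

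Among the helicase genes, 9 of the 11 tested had a log2 fold change above 0, with a median of 0.16 and a range of -0.24 to 0.48, and 5 intervals lay within 1.5-fold. The largest difference was that of *Mcm2* (chr6:88883474-88898780, mm10, minus strand). It stood at 9.60, 12.3, 9.89, 9.84, 6.88 and 10.6 normalized CPM in Control replicates 1 to 6 and at 21.5, 14.2, 14.9, 11.97, 10.6 and 9.44 in iNICD replicates 1 to 6. iNICD replicates 1, 2 and 3 were above every Control library, iNICD replicate 6 was below 5 of the 6, and the lowest value was that of Control replicate 5. The log2 fold change was 0.48 ± 0.19 with an interval of 0.07 to 0.90 (adjusted p = 0.210, edgeR), and the exact permutation test of the 6 against 6 libraries gave p = 0.0541 (two-sided, unadjusted). Without iNICD replicate 1 the log2 fold change of *Mcm2* was 0.31, and without iNICD replicates 1 and 3 it was 0.23.

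*Mcm7* (chr5:138164583-138172422, mm10, minus strand), another subunit of the ring, stood at 9.23, 10.1, 8.77, 8.45, 5.34 and 9.25 normalized CPM in Control and at 14.9, 10.45, 12.9, 10.53, 9.11 and 10.1 in iNICD. In 5 of the 6 iNICD libraries it was above every Control library. The log2 fold change was 0.41 ± 0.16 (adjusted p = 0.191, edgeR; exact permutation p = 0.0130, two-sided, unadjusted), and it was 0.30 without Control replicate 5, the lowest library, 0.32 without iNICD replicate 1 and 0.24 without iNICD replicates 1 and 3. *Mcm7* overlaps *Cops6* and *Ap4m1* on the opposite strand.

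The other subunits of the ring had values on either side of 0. *Mcm5* had a log2 fold change of 0.41 ± 0.23, *Mcm4* of 0.16 ± 0.09, *Mcm3* of 0.07 ± 0.18 and *Mcm6* of -0.24 ± 0.28, and none of these 4 was called or under 0.05 without adjustment. Without iNICD replicate 1 these values were 0.22 for *Mcm5*, 0.11 for *Mcm4*, -0.059 for *Mcm3* and -0.47 for *Mcm6*, and without Control replicate 2 *Mcm3* had 0.18 and *Mcm6* -0.10. *Mcm6*, the subunit with 3 E2F matches before its start, spread over 8.61 to 23.1 normalized CPM in Control and 7.38 to 23.2 in iNICD. *Cdc45*, which joins the ring to make the active helicase, had a log2 fold change of 0.32 ± 0.18, and 3 iNICD libraries were above every Control library. Without iNICD replicates 1 and 3 that value was 0.10. Of the 4 GINS genes, *Gins4* had the smallest absolute log2 fold change of the helicase genes, -0.0042 ± 0.09. *Gins3* had the largest of the 4, 0.28 ± 0.13 (adjusted p = 0.289, edgeR, and exact permutation p = 0.0108, two-sided, unadjusted). *Gins4* stood at 14.9, 12.9, 14.9, 14.5, 10.9 and 15.1 normalized CPM in Control and at 14.8, 14.6, 13.1, 12.8, 12.8 and 14.7 in iNICD.

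Of the 5 polymerase and primase genes, 4 had a log2 fold change above 0, with a median of 0.02 and a range of -0.02 to 0.20, and 4 intervals lay within 1.5-fold. *Pold1*, the catalytic subunit of the lagging strand polymerase, stood at 13.5, 13.3, 15.8, 15.01, 8.71 and 13.9 normalized CPM in Control and at 12.9, 13.3, 12.8, 11.9, 14.8 and 15.5 in iNICD. Its log2 fold change was 0.02 ± 0.13 with an interval of -0.26 to 0.30. *Pole*, the leading strand polymerase, stood at 3.56, 3.98, 4.39, 3.99, 1.83 and 5.97 in Control and at 8.53, 4.54, 4.56, 3.18, 2.76 and 3.69 in iNICD. iNICD replicate 1 was the only iNICD library above every Control library, and without it the log2 fold change of *Pole* went from 0.20 ± 0.30 to -0.08. *Pola1*, *Prim1* and *Prim2*, which make the primers, had log2 fold changes of 0.18, 0.02 and -0.02, and without iNICD replicate 1 those of *Pola1* and *Prim1* were 0.088 and -0.18. *Prim2* turned sign without Control replicate 2, Control replicate 5, iNICD replicate 2 or iNICD replicate 6.

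Of the 6 clamp and clamp loader genes, 5 had a log2 fold change above 0, with a median of 0.12, and 5 intervals lay within 1.5-fold. *Rfc1*, the large subunit of the loader, stood at 57.9, 52.2, 62.8, 58.3, 39.2 and 60.5 normalized CPM in Control and at 56.5, 58.3, 53.0, 59.9, 52.6 and 54.8 in iNICD, a log2 fold change of 0.02 ± 0.10. *Rfc3* (chr5:151642756-151651242, mm10, minus strand), a small subunit, stood at 5.42, 5.57, 4.01, 5.14, 4.21 and 4.95 in Control and at 6.62, 5.86, 5.47, 5.64, 5.47 and 5.83 in iNICD. In 4 iNICD libraries *Rfc3* was above every Control library and in the other two it was below only Control replicate 2, so the groups overlapped by 1 Control library. The log2 fold change was 0.25 ± 0.11 (adjusted p = 0.267, edgeR), and the exact permutation p of 0.00866 (two-sided, unadjusted) was the lowest of the 39. Without iNICD replicates 1 and 3 it was 0.22, which is close to the value with all libraries. *Pcna*, the clamp itself, had a log2 fold change of 0.19 ± 0.09 with an interval of -0.01 to 0.38, and *Rfc2*, *Rfc4* and *Rfc5* had -0.01, 0.12 and 0.11. These last values did not hold their sign: *Rfc2* turned without Control replicate 1 or iNICD replicate 2, *Rfc5* without Control replicate 5, and *Rfc4* without iNICD replicates 1 and 3.

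By the exact permutation test, 4 of the 39 tested genes were under 0.05 without adjustment and higher in iNICD (*Mcm7*, *Gins3*, *Rfc3* and *Pcna*, the last at p = 0.0498) and 0 were lower, where 9.79% of all tested genes were higher and 8.29% lower by that test. With 6 against 6 libraries the test allows 924 arrangements and a smallest p of 0.00216. After adjustment over all tested genes, 0 of the 13541 passed by this test, so it could single out none of the replication genes.

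For the 2 enzymes that finish Okazaki fragments the median log2 fold change was 0.23, both values were above 0, and 1 interval, that of *Fen1*, lay within 1.5-fold. *Fen1*, the flap nuclease, stood at 6.13, 6.38, 5.83, 6.44, 3.70 and 6.89 normalized CPM in Control and at 7.596, 6.44, 6.31, 6.29, 7.27 and 5.62 in iNICD, a log2 fold change of 0.16 ± 0.14. Without Control replicate 5, its lowest library, that value was 0.054. *Lig1*, the ligase, stood at 7.33, 8.86, 6.50, 6.52, 5.71 and 5.83 in Control and at 13.4, 6.83, 9.09, 7.12, 6.73 and 6.97 in iNICD. *Lig1* was above every Control library in iNICD replicates 1 and 3, and its log2 fold change was 0.30 ± 0.18 (adjusted p = 0.434, edgeR). Without iNICD replicate 1 it was 0.11, and without both of these libraries 0.026.

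The largest difference of all 39 was in nucleotide supply. *Rrm1*, the large subunit of ribonucleotide reductase, stood at 26.8, 28.8, 27.8, 27.7, 24.3 and 24.8 normalized CPM in Control and 35.5, 31.3, 28.9, 29.8, 24.7 and 29.1 in iNICD. In 5 of the 6 iNICD libraries *Rrm1* was above every Control library, and its log2 fold change was 0.16 ± 0.08 (adjusted p = 0.336, edgeR), or 0.11 without iNICD replicate 1. *Rrm2* (chr12:24708241-24714146, mm10, plus strand), the small subunit, whose level follows S phase in dividing cells, stood at 2.73, 2.80, 2.57, 2.05, 1.73 and 1.62 in Control and at 9.63, 2.82, 9.56, 4.28, 1.76 and 1.35 in iNICD. iNICD replicates 1 and 3 stood far above the rest, iNICD replicate 4 was also above every Control library, iNICD replicate 2 was above the highest of them by a small margin and iNICD replicate 6 was the lowest of all 12. For *Rrm2* the log2 fold change was 1.12 ± 0.46 with an interval of 0.13 to 2.11 (adjusted p = 0.220, edgeR), whereas the exact permutation test gave p = 0.173 (two-sided). Without iNICD replicates 1 and 3 the log2 fold change of *Rrm2* was 0.18. *Tyms*, which makes thymidylate, had the lowest log2 fold change of the 39, -0.27 ± 0.17 (adjusted p = 0.443, edgeR), with 3 iNICD libraries below every Control library; it was -0.18 without iNICD replicate 6 and -0.43 without iNICD replicates 1 and 3.

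*Chaf1a*, the large subunit of CAF-1, stood at 4.51, 5.31, 4.55, 3.63, 3.32 and 3.66 normalized CPM in Control and at 8.61, 4.50, 5.62, 4.09, 4.39 and 4.39 in iNICD, a log2 fold change of 0.34 ± 0.20, or 0.14 without iNICD replicate 1. *Uhrf1* (chr17:56303321-56323486, mm10, plus strand), which carries DNA methylation through replication, stood at 1.53, 2.99, 0.621, 1.11, 1.498 and 1.02 in Control and at 5.93, 0.750, 4.82, 1.02, 1.30 and 0.656 in iNICD. Only iNICD replicates 1 and 3 were above every Control library for *Uhrf1*; the log2 fold change was 0.72 ± 0.58, and without them it was -0.65.

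*E2f1* (chr2:154559407-154569892, mm10, minus strand), the transcription factor that many of these genes respond to, stood at 1.49, 2.84, 1.65, 1.501, 1.17 and 1.20 normalized CPM in Control and at 8.61, 2.34, 4.01, 1.74, 1.25 and 1.31 in iNICD. The pattern was that of *Uhrf1*: iNICD replicates 1 and 3 were above every Control library, and the other four lay within the Control range. For *E2f1* the log2 fold change was 0.96 ± 0.47 with an interval of -0.05 to 1.97 (adjusted p = 0.310, edgeR), and without those libraries it was 0.0089. Without iNICD replicate 1 alone it was 0.37, and without iNICD replicate 3 alone 0.89. The cyclins E, which with Cdk2 start S phase, had log2 fold changes of 0.15 (*Ccne1*) and 0.15 (*Ccne2*), and iNICD replicate 1 was the highest library for both. Without that library both turned sign, to -0.052 and -0.15. In Control LA *Ccne2* had the highest level per length of these 3 genes, at 0.731 ± 0.179 normalized CPM per kilobase, followed by *Ccne1* at 0.657 ± 0.173 and *E2f1* at 0.521 ± 0.195, each within the spread of its neighbour.

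**Figure D3:**
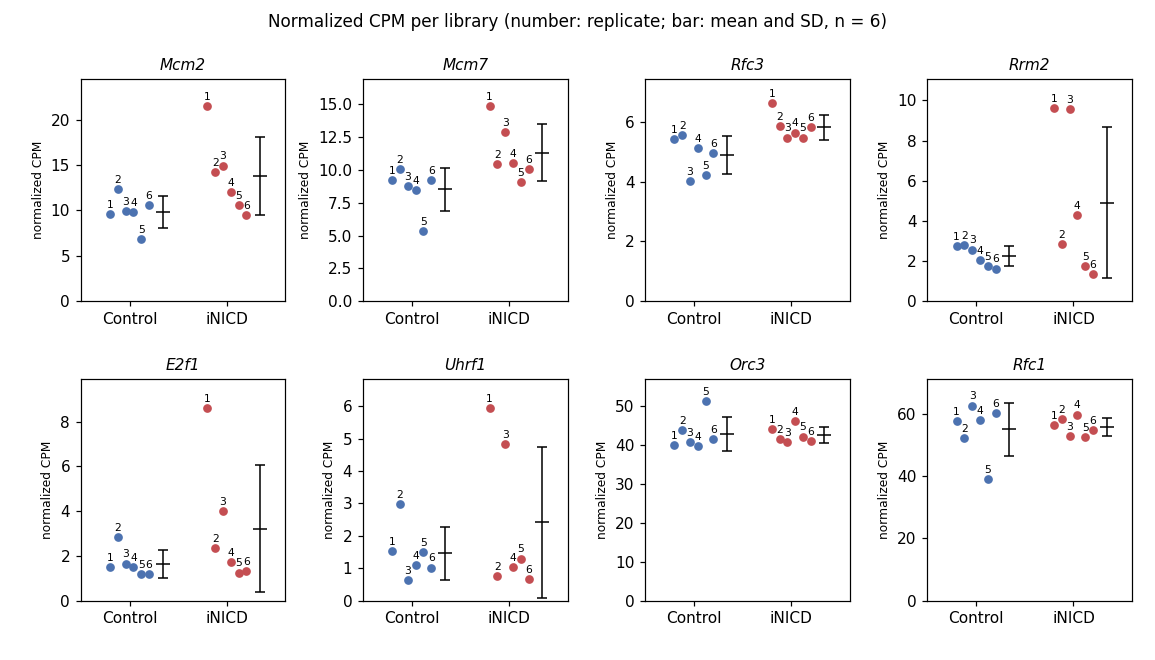
Normalized CPM of 8 replication genes in each library (points, numbered by replicate) with mean and SD of 6 libraries per group. *Rrm2*, *E2f1* and *Uhrf1* are high in iNICD replicates 1 and 3, *Mcm2* and *Mcm7* are highest in iNICD replicate 1, *Rfc3* is above every Control library in 4 of 6 iNICD libraries, and the groups overlap throughout for *Orc3* and *Rfc1*.

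The iNICD libraries were unequal in these genes. iNICD replicate 1 was the highest of the 12 libraries for 28 of the 43 genes (65.1%), among them 10 of the 12 helicase genes and all 3 each of the chromatin and S phase entry genes; it was the highest for 8.87% of all tested genes. It was above every Control library for 29 of the 43 (67.4%), where this held for 18.2% of all tested genes. iNICD replicate 3 was above every Control library for 15 of the 43 (34.9%), where this held for 14.8% of all. In iNICD replicates 2, 4, 5 and 6 the count was 9, 4, 3 and 4 (20.9%, 9.30%, 6.98% and 9.30%), where this held for 18.0%, 16.5%, 13.5% and 17.8% of all tested genes. These libraries were singled out after their values were seen, so the counts carry no test.

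**Figure D4:**
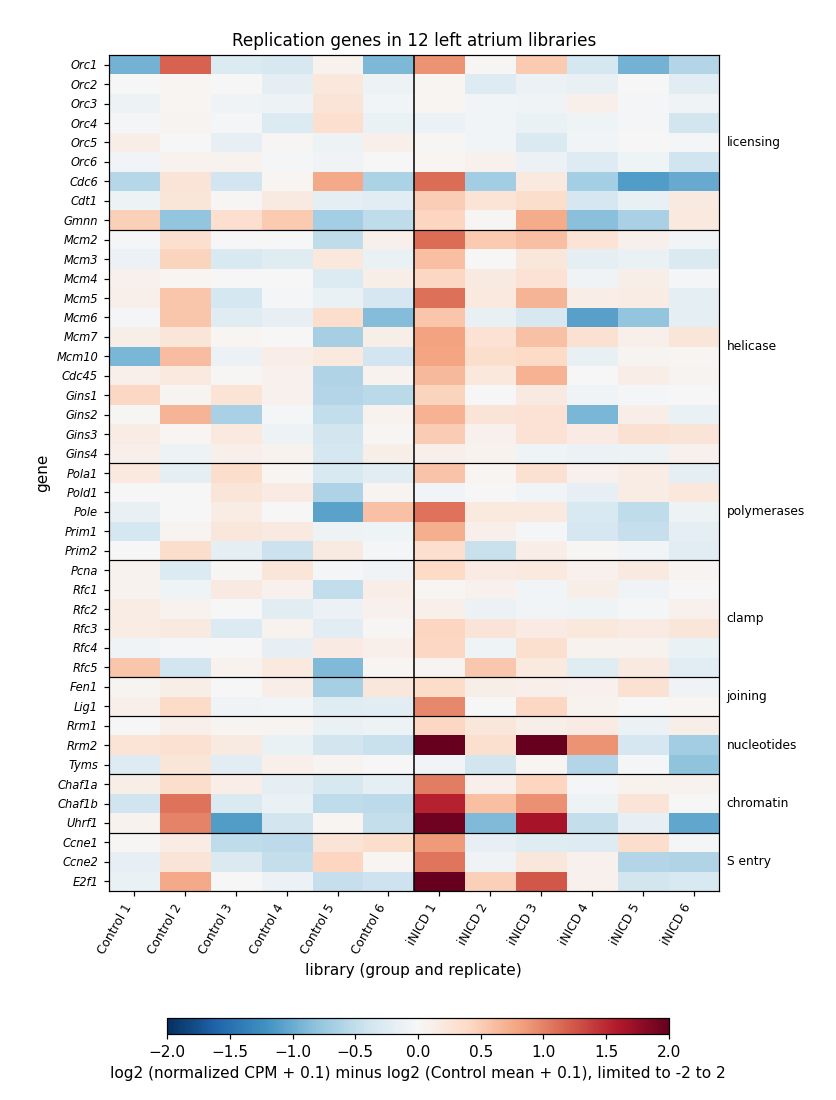
Each of the 43 replication genes (rows, by role) in the 12 libraries (columns), as log2 of normalized CPM plus 0.1 minus that of the Control mean, limited to -2 to 2. The column of iNICD replicate 1 is red for most genes, the column of Control replicate 5 is blue for many, and *Orc2* to *Orc6* stay pale across all columns.

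Control replicate 5 was the lowest of the 12 libraries for 17 of the 43 genes (39.5%), and for 29.04% of all tested genes. Summed over the 43 genes, the level was 402 to 454 normalized CPM in Control (median 423) and 405 to 546 in iNICD (median 429), and iNICD replicate 1, at 546, was highest. The next library was iNICD replicate 3 at 460. Without iNICD replicate 1, 23 of the 39 log2 fold changes were above 0, with a median of 0.03, and without iNICD replicates 1 and 3, 19 of 39 were, with a median of -0.0037. Without Control replicate 5, 26 of 39 were above 0, with a median of 0.11. Of the 39 log2 fold changes, 25 turned sign or moved by over 1.5 times without iNICD replicate 1, and the 6 that turned sign were *Mcm3*, *Gins2*, *Pole*, *Prim1*, *Ccne1* and *Ccne2*. The count was 17 without Control replicate 5; for each of the other 10 libraries that count was 7 to 12.

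The same libraries stood apart in markers of mitosis, which are made in G2 and M phase. Summed over 29 markers, the level was 58.0 to 89.99 normalized CPM in Control and 264 and 200.4 in iNICD replicates 1 and 3, while the other four iNICD libraries lay between 71.1 and 88.5. All 29 markers were highest in iNICD replicate 1 (26) or iNICD replicate 3 (3). *Mki67*, the proliferation antigen, stood at 1.11 to 4.02 in Control and at 17.5, 4.76, 17.4, 3.56, 1.59 and 1.35 in iNICD. Of the 29, 17 were tested and 0 were called, with all 17 log2 fold changes above 0 and a median of 1.36; 11 were under 0.05 without adjustment, where 9.32% of all tested genes were under 0.05 and higher. DESeq2 called 4 of these 17, all higher, against 7.84% of all genes it gave an adjusted p, in either direction. The markers with the lowest p were *Kif20a*, a kinesin of cytokinesis (log2 fold change 1.597 ± 0.46, adjusted p = 0.0747), *Nusap1*, a spindle protein (1.39 ± 0.46, adjusted p = 0.122), and *Anln*, a scaffold of the cleavage furrow (1.36 ± 0.45, adjusted p = 0.127, all edgeR).

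**Figure D5:**
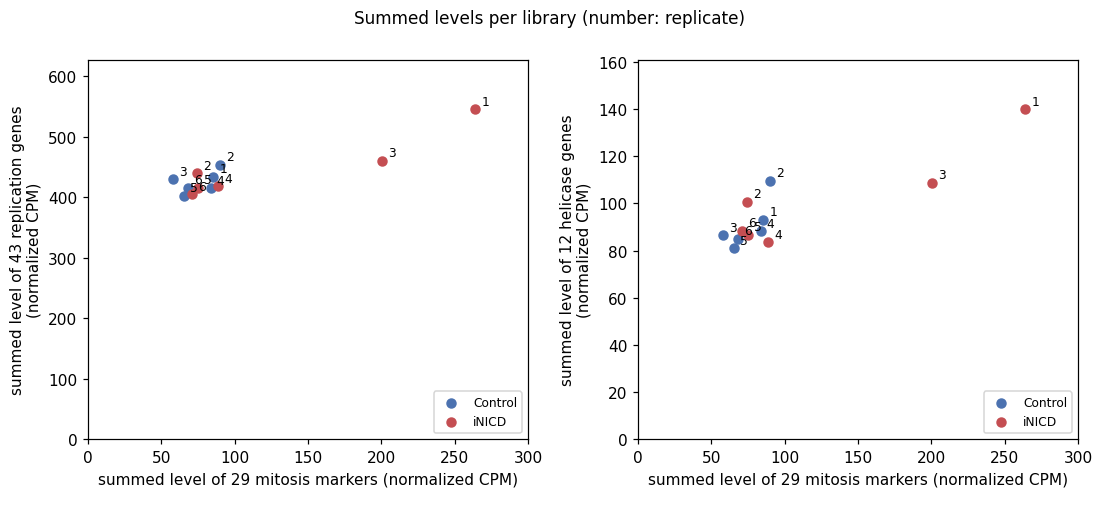
Summed level of all 43 replication genes (left) and of the 12 helicase genes (right) against that of 29 mitosis markers, per library and in normalized CPM; numbers are replicates. iNICD replicates 1 and 3 lie to the right at 264 and 200.4, and iNICD replicate 1 is also highest on both vertical axes, while the other 10 libraries lie together at 58.0 to 89.99 on the horizontal axis.

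Markers of cells other than cardiomyocytes were read in the same libraries. The sum of 11 lymphocyte and thymocyte markers, 9 of them below the filter, was 7.47 normalized CPM in iNICD replicate 1 and 6.53 in iNICD replicate 3, the 2 highest values, against 4.35 to 6.12 in Control and 2.69 to 5.64 in the other iNICD libraries. The thymocyte genes *Rag1*, *Rag2*, *Dntt* and *Ptcra* were at or near 0 in both groups. The sum of 8 fibroblast markers was 3794 in iNICD replicate 1, inside the Control range of 3000.2 to 4314, and 4956 in iNICD replicate 3, the highest of all. The sum of 8 macrophage markers was 460.2 in iNICD replicate 1, inside the Control range of 405 to 518, and 611 in iNICD replicate 3, again the highest. The sum of 8 endothelial markers was 904 and 1021 in these libraries, against 915 to 1278 in Control. The sum of 6 erythroid markers was 59.5 to 247 in Control (mean 161 ± 69.98, SD, n = 6) and 27.1 to 138 in iNICD (66.0 ± 42.3), with 27.7 in iNICD replicate 1, 27.1 in iNICD replicate 2 and 84.1 in iNICD replicate 3; 3 iNICD libraries were below every Control library. All 5 tested had a log2 fold change below 0 and an unadjusted p under 0.05 (edgeR), where 8.09% of all tested genes had both. Their median was -1.30, and edgeR called 0. The sum of 8 smooth muscle and pericyte markers was 629.8 and 653 in iNICD replicates 1 and 3, against 434 to 879. Sums of 6 adipocyte markers (117 and 146) lay within the Control range of 105 to 205, those of 5 mesothelial markers were 182 and 224 against 210.4 to 279, and 5 lung epithelial markers summed to at most 1.09 in any library. Of the markers named in this paragraph edgeR called 1, *Cspg4* of pericytes, higher in iNICD. DESeq2 called that gene and 3 more, all lower (*Egfl7* of endothelium, *Hbb-bt* and *Alas2* of erythroid cells). Over all tested genes edgeR called 2.78% higher and 1.34% lower, and DESeq2 called 7.84% of those it gave an adjusted p. The part of these cells in the levels of the replication genes was not tested.

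iNICD replicates 1 and 3 are both female. So is iNICD replicate 2, whose sum of mitosis markers, 74.3 normalized CPM, lay within the Control range of 58.0 to 89.99. In female mice alone (4 Control and 3 iNICD) 9 of the 39 genes were under 0.05 without adjustment in either direction, against 18.2% of all tested genes. All 9 were higher in iNICD. Of the 39, 0 were called, the lowest adjusted p being 0.0698 (*Mcm2*, log2 fold change 0.70, edgeR). In male mice alone (2 Control and 3 iNICD) 0 were under 0.05 (5.84% of all) and 0 were called. Control replicate 5, the library that stood apart over all genes, is 1 of the 2 male Control libraries. Any comparison of the sexes here rests in part on that library. With sex as a covariate 13 of the 39 were under 0.05, all higher (20.2% of all in either direction), and 0 were called (lowest adjusted p = 0.0697, *Mcm2*, edgeR). The difference between the sexes was itself tested by an interaction term, which called 0 of the 39 genes and 0 of all 13541, and 1 of the 39 (*Ccne2*) was under 0.05 without adjustment, against 3.70% of all.

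The E2F letters were set beside the differences. Of the 14 genes with a match, 12 were tested, 10 had a log2 fold change above 0, and the median was 0.22. Of the 20 genes with a window and no match, 18 were tested, 13 were above 0, and the median was 0.14. iNICD replicate 1 was the highest library for 11 of the 14 and for 12 of the 20. *Rrm2* and *E2f1*, with the largest differences, are among those with no match in the window. The window of *E2f1* lies wholly inside the gene as GENCODE places it, so the bases before that gene's outermost start were not searched. *Mcm6* and *Orc3*, which carry matches, had log2 fold changes of -0.24 and -0.01. These counts are a description, with no test.

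Other genes of the same processes were read from lists. Of 46 further replication genes (alternative loaders, checkpoint and fork protection factors, histone chaperones), 42 were tested and 0 were called by edgeR, with 2 under 0.05 without adjustment (1 higher, 1 lower), where 9.32% of all tested genes were higher and 8.09% lower. DESeq2 called 1. Of the 42, 25 log2 fold changes were above 0 and the median was 0.04. *Chtf8*, a subunit of an alternative clamp loader, stood at 87.0, 75.4, 75.7, 87.1, 86.6 and 74.3 normalized CPM in Control and at 66.9, 71.5, 69.1, 71.1, 67.6 and 70.5 in iNICD, with no overlap between the groups. Its log2 fold change was -0.22 ± 0.06, with an adjusted p of 0.0528 (edgeR) and 0.00494 by DESeq2. With edgeR it was called without Control replicate 2 (adjusted p = 0.0492), without Control replicate 5 (0.0499) or without Control replicate 6 (0.0401). *Asf1b*, a histone chaperone of dividing cells, had 0.59 ± 0.23 (adjusted p = 0.188, edgeR) and *Tipin*, of the fork protection complex, 0.23 ± 0.11 (adjusted p = 0.317, edgeR).

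Of 40 regulators of the G1/S transition, 36 were tested and 0 were called by edgeR or DESeq2, 3 being under 0.05 without adjustment (2 higher, 1 lower, against the same 9.32% and 8.09% of all), with 21 log2 fold changes above 0 and a median of 0.02. *Ccna2*, the S phase cyclin, stood at 0.416 to 2.84 normalized CPM in Control and at 16.5, 1.85, 8.80, 2.54, 1.67 and 1.03 in iNICD (log2 fold change 1.79 ± 0.68, adjusted p = 0.186, edgeR). Here too iNICD replicates 1 and 3 were the 2 highest libraries. *E2f3*, an activating E2F factor, had a log2 fold change of 0.41 ± 0.17 (adjusted p = 0.241, edgeR) with the highest value in iNICD replicate 1. Without Control replicate 5 *E2f3* was called (0.56, adjusted p = 0.0415, edgeR). *Cdc25a*, the phosphatase that frees Cdk2, had -0.23 ± 0.10 (adjusted p = 0.254, edgeR).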

How the data were processed

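LA libraries were made by the authors from RNA without ribosomal RNA and sequenced with stranded 50-base single-end reads. The authors deposited raw read counts per gene name, without normalization, and a gene length in bases. The submitters' processing notes name cutadapt, STAR 2.4.2a and featureCounts of Subread, and mm10, as does the route in the study's methods that compares both atria (STAR in another version, featureCounts, mm10). The methods also describe a route for the LA with TopHat2 and HTSeq. The table does not name its route or say whether strand was used; 14 of the 43 members overlap another protein-coding gene. One described route ended in the exact test of edgeR, used here as an alternative. Members and gene lists were chosen with earlier results of these data known.

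A gene entered the tests if 6 or more libraries exceeded 1 CPM (13541 genes). The test was the quasi-likelihood F test in edgeR 4.0.16 (R 4.3.3) with TMM normalization, Benjamini-Hochberg adjustment and a threshold of 0.05, two-sided. Single genes were also compared by an exact permutation test on log2(normalized CPM + 1), two-sided, in Python 3.11.15 with scipy 1.17.1; scripts were tested on simulated data. Depth was 21432632 to 27182038 counts per library. No 2 libraries of a group were copies (lowest chi-square per gene 14.2). Alternatives were DESeq2 1.42.0, the exact test of edgeR, RLE normalization, 2 other filters, an added term for sex, replicate blocks by title or description number, and each library left out. Chosen after seeing the data were both iNICD libraries 1 and 3 left out, each sex alone, the interaction with sex, and libraries left out of the permutation test. In each role, values in every library are given for the gene of the highest level per length (mean over all 12 libraries) and that of the largest absolute log2 fold change; *Mcm7*, singled out after its values were seen, gets them too. From each other list the 3 genes with the lowest p are named. Positions are from GENCODE M21. Controls were littermates per the study's methods, but the sources used here do not tie animals to litters, so litter was not modelled and p-values measure the spread between these animals.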

Additional observations from a re-analysis of the deposited data

Results flagged for a closer look

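Within each group of 6 libraries, a library was singled out where the gap between it and its nearest neighbour took up more of the group's range than Dixon's 95% critical value for 6 samples allows. Over the 43 genes and 2 summed levels in 2 groups, 90 in all, this met 18 values, where chance gives about 4.5 if values are independent, which these genes are not. Over all tested genes 9.76% of the groups met it, and 20.5% over the 39 tested replication genes.

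iNICD replicate 1 was set apart for 7 genes (17.9% of the 39 tested, against 0.967% of all tested genes), always on the high side: *Pole* at 8.53 normalized CPM (others 2.76 to 4.56), *Prim1* at 5.89 (2.55 to 3.79), *Pcna* at 20.7 (16.2 to 17.9), *Rfc3* at 6.62 (5.47 to 5.86), *Lig1* at 13.4 (6.73 to 9.09), *Chaf1a* at 8.61 (4.09 to 5.62) and *Ccne2* at 5.48 (1.64 to 2.99).

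Control replicate 5 was set apart for 6 genes (15.4% of the 39, against 10.97% of all tested genes), on the low side for *Mcm4* at 14.8 (17.9 to 19.3), *Mcm7* at 5.34 (8.45 to 10.1), *Cdc45* at 2.11 (3.31 to 3.73), *Pold1* at 8.71 (13.3 to 15.8) and *Fen1* at 3.70 (5.83 to 6.89), and on the high side for *Orc3* at 51.1 (39.7 to 43.8). Control replicate 2 was set apart on the high side for *Orc1* at 0.517 (0.0414 to 0.187), *Chaf1b* at 1.33 (0.370 to 0.514) and *E2f1* at 2.84 (1.17 to 1.65). The last 2 values were the low ones of *Orc4* in iNICD replicate 6, at 33.4 (39.5 to 41.8), and *Orc5* in iNICD replicate 3, at 9.78 (11.597 to 12.2).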

How the results depend on the processing

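The count of replication genes called was 0 in each direction under every alternative run. Of all tested genes, 377 were called higher and 181 lower; DESeq2 gave 615 and 444, male mice alone 8 and 0, both iNICD libraries 1 and 3 left out 190 and 43, and the exact test of edgeR 280 lower. With single libraries left out the counts ran from 252 to 486 higher and from 90 to 310 lower; the lower count moved past 1.5-fold without Control 1, 4 or 5 or iNICD 1, 2, 3 or 4. Of the further replication genes DESeq2 called 1 lower, and leaving out single libraries 0 to 1; of the G1/S regulators leaving out single libraries gave 0 to 1 higher (1 without Control 5). Of the mitosis markers DESeq2 called 4 higher, the exact test 2, female mice alone 3 and sex as a covariate 1. Genes under 0.05 by exact permutation numbered 3 to 6 with single libraries left out and 2 without both iNICD libraries. The causes were not tested.

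Some log2 fold changes turned sign, including those of *Pole* (0.20), *Mcm6* (-0.24), *Uhrf1* (0.72), *Ccne1* (0.15) and *Ccne2* (0.15). With single libraries left out they ran from -0.037 to 0.046 for *Orc3*, -0.067 to 0.017 for *Gins4*, -0.080 to 0.073 for *Pold1*, -0.076 to 0.35 for *Pole* and -0.065 to 0.059 for *Rfc1*. In female mice they were 0.022 for *Mcm6*, 0.035 for *Orc3*, -0.15 for *Pold1* and -0.047 for *Rfc1*; in male mice 0.037 for *Gins4*, -0.29 for *Pole* and -0.36 for *Uhrf1*. Without both iNICD libraries *Pole* had -0.16 and *Uhrf1* -0.65, and with sex as a covariate *Gins4* had 0.014.

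Whether numbers shared between groups pair the libraries was not settled. Correlations of deviations between libraries of the same number ran from -0.15 to 0.43, and libraries of different numbers were not compared. With a replicate block by title 332 genes were called higher and 136 lower, and by description 285 and 136, with 0 replication genes; *Gins4* had 0.0015 and 0.0018, *Uhrf1* 0.36 in both, *Rrm2* 0.80 in both and *E2f1* 0.67 in both. Low counts limit *Orc1*, *Cdc6*, *Mcm10* and *Chaf1b* most.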
